A study of Arabidopsis thaliana with 6 samples.

Results

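Roots take up nitrate and reduce it to ammonium with a small set of well-known genes, and 10 of these loci, named by their identifiers, were followed among the 33602 genes counted in the series. They comprise 7 genes of nitrate transport (NRT1.1, NRT1.5, NRT2.1, NRT2.2, NRT2.4, NRT2.5 and NRT3.1) and 3 genes of nitrate reduction (NIA1, NIA2 and NIR1). RNA-Seq had been performed on primary roots of Arabidopsis ipt1,3,5,7 plants at 7 d, a mutant in 4 isopentenyltransferase genes that start cytokinin synthesis, so both groups lack most of their own cytokinin. BAP roots were collected 4 h after transfer to 1 µM 6-benzylaminopurine (BAP), a synthetic cytokinin (3 libraries), and the controls 1 h after transfer to its solvent, dimethyl sulfoxide (DMSO; 3 libraries). All seedlings grew on half-strength Murashige and Skoog medium with sucrose, and lateral roots and root tips were removed at harvest. The study's methods call the 3 libraries of each group biological replicates. Because BAP and DMSO roots also differ in the time since transfer, treatment and time cannot be told apart in any comparison made here.

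Nitrate enters root cells with protons through transporters of the NRT1 (NPF) and NRT2 families. NRT1.1 is a transporter with 2 affinity modes that also serves as a nitrate sensor, NRT2.1, NRT2.2, NRT2.4 and NRT2.5 belong to the high-affinity system, and NRT3.1 is the partner protein that NRT2 transporters need at the plasma membrane. NRT1.5 loads nitrate into the xylem for transport to the shoot. In the cell, nitrate reductase, encoded by NIA1 and NIA2, reduces nitrate to nitrite in the cytosol, and nitrite reductase, encoded by NIR1, reduces nitrite to ammonium in the plastid. Many of these genes are known to be induced by nitrate and to vary over the day, and cytokinin is known as a signal of nitrogen status between root and shoot.

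After 4 h of BAP, transcripts of the uptake genes NRT1.1, NRT2.1 and NRT2.2 and of the xylem loader NRT1.5 were lower than in DMSO roots, with NRT1.1 lower 6.94-fold. Those of NIA1, 1 of the nitrate reductase genes, were 2.57-fold higher. NIA2 and NRT3.1 did not pass the test, NIR1 was lower by a small margin, and NRT2.4 and NRT2.5 gave too few reads to be tested. Of the 8 loci tested, 1 was called higher, when 11.6% of all tested genes were called higher, and 5 were called lower, when 11.4% of all tested genes were called lower. Calls required an adjusted p no greater than 0.05 (quasi-likelihood test of edgeR, Benjamini-Hochberg over 20987 genes) together with a log2 fold change of 0.5 or more in either direction, the fold minimum. BAP and DMSO libraries were fully separated at 6 of the 8 loci, as they were at 51.4% of all tested genes. The median log2 fold change of the 8 loci was -0.59, and that of all tested genes was 0.000464.

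**Figure D1:**
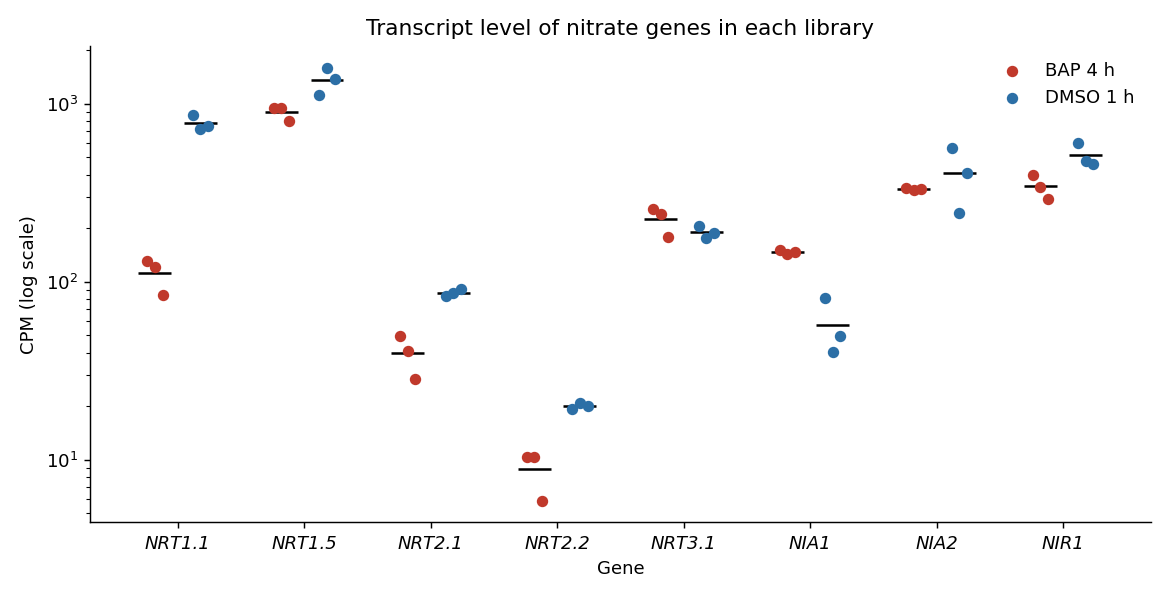
Transcript level in counts per 1000000 counts (CPM, log scale) of the 8 tested nitrate genes in each of the 3 BAP libraries (red) and 3 DMSO libraries (blue), with a line at each group mean. BAP points lie below all DMSO points for NRT1.1, NRT1.5, NRT2.1, NRT2.2 and NIR1 and above them for NIA1.

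The libraries held 20085917 to 20127269 counts in the BAP group and 19957748 to 20026876 counts in the DMSO group. A count of 0 thus allows up to 0.149 to 0.150 CPM before any scaling of library sizes (counting error only). All other values are in CPM (counts per 1000000 counts) with library sizes scaled by the trimmed mean of M-values (TMM). The TMM factors ran from 0.953 (BAP replicate 2) to 1.041 (DMSO replicate 3), so the limit shifts slightly on the scaled values. Type-A response regulators ARR5, ARR7 and ARR15, the usual early targets of cytokinin, summed to 265 to 312 CPM in BAP libraries and 16.4 to 20.2 CPM in DMSO libraries, and all 3 were called higher. The 4 IPT genes that carry the mutations summed to 1.24 to 2.66 CPM in BAP libraries and 15.0 to 17.6 CPM in DMSO libraries. Markers of root cell types were detected in both groups, with none at 0 in every library. Leaf photosynthesis markers summed to 84.7 to 133 CPM in BAP libraries and 102 to 138 CPM in DMSO libraries. Of 6, 3 were called higher (RBCS1A, RBCS2B and LHCB1.3) and PSBO1 was called lower. BAP replicates 1, 2 and 3 had 11.3, 9.87 and 26.8 CPM of RBCS1A and 1.55, 1.15 and 6.53 CPM of RBCS2B. For LHCB1.3 they had 18.1, 11.7 and 26.1 CPM, so replicate 3 was the highest for each. Root tip markers summed to 19.8 to 27.5 CPM in BAP libraries and 28.8 to 33.3 CPM in DMSO libraries, with 2 of 6 called lower (WOX5 and PLT2). The 4 markers of lateral root formation, LBD16, LBD29, PUCHI and GATA23, were all called lower. Their sums were 7.76 to 7.99 CPM in BAP libraries and 40.0 to 43.0 CPM in DMSO libraries. Among all tested genes, 11.6% were called higher and 11.4% were called lower.

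The sequences of 2 gene pairs bear on how the counts can be read. NRT2.1 and NRT2.2 face each other tail to tail on chromosome 1 with 1005 bases between them, and their coding sequences were identical at 89.4% of 1569 aligned bases. Of all 50-base words in the exons of NRT2.1, 8.86% also occurred in NRT2.2, and 11.1% of those of NRT2.2 occurred in NRT2.1. Reads from these stretches cannot be assigned by sequence alone. The windows of 250 bases before their start sites (RefSeq, TAIR10.1) are shown. The pair was picked for its nearly equal log2 fold changes, and a part of shared bases in these was not tested. The window of NRT2.1 is chr1:2523773-2524022 on the plus strand and that of NRT2.2 chr1:2529121-2529370 on the minus strand. Capitals mark runs of at least 12 bases found in both windows.
NRT2.1: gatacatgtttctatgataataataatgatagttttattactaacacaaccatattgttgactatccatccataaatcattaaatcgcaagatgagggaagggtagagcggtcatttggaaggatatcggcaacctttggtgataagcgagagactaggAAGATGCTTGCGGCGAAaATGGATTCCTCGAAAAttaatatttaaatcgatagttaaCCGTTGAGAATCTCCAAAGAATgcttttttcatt
NRT2.2: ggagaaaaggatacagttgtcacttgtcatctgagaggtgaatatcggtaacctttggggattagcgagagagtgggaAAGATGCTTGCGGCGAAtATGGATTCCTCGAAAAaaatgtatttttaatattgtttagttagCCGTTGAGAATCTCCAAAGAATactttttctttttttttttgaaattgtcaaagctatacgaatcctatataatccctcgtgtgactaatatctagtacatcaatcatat

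The shared runs number 3 and cover 55 bases, and the longest has 22 bases. The nitrate reductase genes differ from this pair. Their coding sequences were identical at 73.8% of 2724 aligned bases, no 50-base exon word of either occurred elsewhere in the TAIR10.1 genome, and their windows had 0 shared runs of that length. They are shown because NIA1 and NIA2 had different values, and a part of the windows in this was not tested. How often windows of other gene pairs share runs of that length was not counted. The window of NIA1 is chr1:29239485-29239734 on the minus strand and that of NIA2 chr1:14158202-14158451 on the plus strand.
NIA1: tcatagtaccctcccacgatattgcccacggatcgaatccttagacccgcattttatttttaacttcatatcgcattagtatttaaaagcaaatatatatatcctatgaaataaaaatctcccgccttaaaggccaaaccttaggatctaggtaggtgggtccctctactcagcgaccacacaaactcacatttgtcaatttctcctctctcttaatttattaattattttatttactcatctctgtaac
NIA2: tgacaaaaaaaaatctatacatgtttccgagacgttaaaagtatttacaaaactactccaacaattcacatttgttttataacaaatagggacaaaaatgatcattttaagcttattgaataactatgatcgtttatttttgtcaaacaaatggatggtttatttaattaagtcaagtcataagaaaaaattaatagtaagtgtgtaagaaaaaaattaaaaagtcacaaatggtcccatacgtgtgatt

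Short motifs were searched on both strands of these windows for all 10 loci. AGATT, the core bound by type-B response regulators, was in 7 of the 10 windows and in 63.7% of 27437 windows of the same length. The longer form AGATACG was in 1 window, that of NRT2.4, and in 1.69% of all windows. GAATC, a site of GARP factors of the HRS1 group, was in 7 of the 10 windows and in 38.9% of all windows, and in NRT2.1, NRT2.2, NRT2.4 and NRT2.5 a match overlapped an AGATT match. The core of the nitrate-responsive element, CTT and AAG with 10 bases between them, was in 0 of the 10 windows and in 8.02% of all windows. A match is a description of letters, and elements outside these windows were not searched.

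NRT1.1 (AT1G12110, TAIR10 chr1:4105233-4109545, plus strand) changed most among the 8 loci tested. It had 130, 121 and 84.7 CPM in BAP libraries, against 860, 721 and 752 CPM in DMSO libraries. Every BAP library was far below every DMSO library. The group means were 112 ± 24.0 CPM in BAP and 778 ± 73.1 CPM in DMSO (SD, n = 3 each), and the log2 fold change was -2.80 ± 0.16 (SE, edgeR adjusted p = 6.62e-06).

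NRT2.1 (AT1G08090, chr1:2524076-2526164, plus strand), the main high-affinity transporter of the root, had 49.3, 40.9 and 28.5 CPM in BAP libraries, against 83.1, 86.1 and 90.4 CPM in DMSO libraries. The groups did not overlap, and the BAP libraries spread more widely, with a highest to lowest ratio of 1.73 in BAP and 1.09 in DMSO. The log2 fold change was -1.13 ± 0.17 (edgeR adjusted p = 0.000962). Its neighbour NRT2.2 (AT1G08100, chr1:2527170-2529120, minus strand), a second transporter of the same system, had 10.3, 10.3 and 5.88 CPM in BAP libraries, against 19.3, 20.7 and 20.1 CPM in DMSO libraries. Again no library crossed between the groups, and BAP replicate 3 was the lowest of the 6. Its log2 fold change was -1.18 ± 0.18 (edgeR adjusted p = 0.00132). The extent to which reads from the shared stretches of this pair entered either count was not tested.

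Counted per kb of exon, NRT2.1 supplied 79.5%, 76.2% and 79.7% of the pair's transcripts in BAP libraries, against 77.7%, 77.1% and 78.5% in DMSO libraries. Exon lengths were taken in full, shared stretches included, and how reads from those stretches were counted is not known. The means were 78.5% ± 1.96 in BAP and 77.7% ± 0.692 in DMSO (SD, n = 3 each), a difference of 0.721 percentage points (exact permutation test, two-sided, p = 0.6). The share of NRT2.1 in the pair therefore overlapped between groups, while the summed level of the pair was 48.4 ± 12.8 CPM in BAP and 107 ± 4.03 CPM in DMSO.

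NRT2.4 (AT5G60770, chr5:24444396-24447026, plus strand) and NRT2.5 (AT1G12940, chr1:4416405-4418590, plus strand), high-affinity transporters known from nitrogen-starved plants, were near the limit of detection. NRT2.4 had 3, 0 and 6 reads in BAP libraries and 7, 0 and 4 reads in DMSO libraries. NRT2.5 had 1, 0 and 0 reads in BAP libraries and 1, 0 and 3 reads in DMSO libraries. Neither passed the filter on low counts, and a difference between the groups was not detectable at this depth.

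NRT3.1 (AT5G50200, chr5:20436180-20437726, plus strand), the partner of the NRT2 proteins, had 256, 242 and 177 CPM in BAP libraries, against 207, 175 and 188 CPM in DMSO libraries. The groups overlapped, because BAP replicate 3 lay between the DMSO libraries. The log2 fold change was 0.24 ± 0.13 with a 95% interval of -0.06 to 0.55 (edgeR adjusted p = 0.187), so the interval holds no change as well as a rise past the fold minimum, but not a fall of the size seen for NRT2.1. BAP replicate 3 weighed on this value: without it the log2 fold change was 0.39 ± 0.09 (edgeR adjusted p = 0.0166), past the p threshold but under the fold minimum, and without BAP replicate 1 it was 0.14 ± 0.14 (edgeR adjusted p = 0.482).

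NRT1.5 (AT1G32450, chr1:11715150-11719970, minus strand), the xylem loader, had 943, 944 and 802 CPM in BAP libraries, against 1114, 1598 and 1370 CPM in DMSO libraries. All BAP libraries were below all DMSO libraries, with means of 896 ± 81.8 CPM in BAP and 1361 ± 242 CPM in DMSO (SD, n = 3 each). The log2 fold change was -0.60 ± 0.14 (edgeR adjusted p = 0.00962). Without DMSO replicate 2, the highest, it was -0.48, under the fold minimum. NRT1.5 is known from pericycle cells next to the xylem, and markers of the stele went both ways. Their 5 genes summed to 452 to 494 CPM in BAP libraries and 920 to 1223 CPM in DMSO libraries, and most of the sum came from PHO1. Of the 5, 2 were called lower (11.4% of all tested genes were) and 2 were called higher (11.6% of all tested genes were). SHR was not called (-0.40), and none was at 0. PHO1, which loads phosphate into the xylem, had a log2 fold change of -1.53, and SKOR, a potassium channel of the stele, one of -4.96, while the phloem gene SUC2 had 1.07 and the cambium receptor gene PXY 0.97. The part of these cells in the value of NRT1.5 was not tested, and in whole root segments fewer cells of a type and less RNA per cell cannot be told apart.

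**Figure D2:**
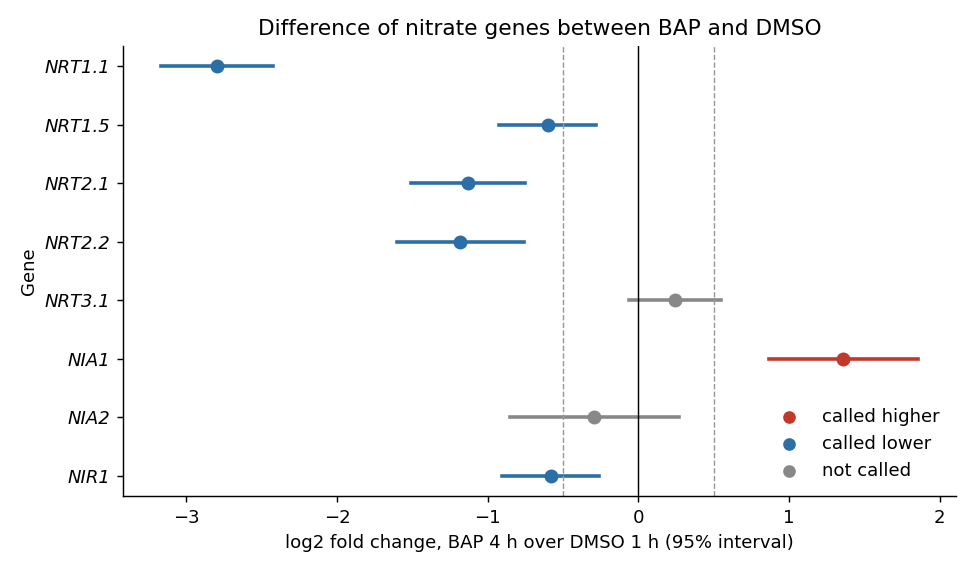
Log2 fold change of BAP 4 h over DMSO 1 h (points) with its 95% interval from edgeR (bars) for the 8 tested nitrate genes, coloured by call, with dashed lines at the fold minimum of 0.5 in either direction. NRT1.1 stands lowest at -2.80 and NIA1 highest at 1.36, and the intervals of NRT3.1 and NIA2 cross 0.

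The reduction genes did not move together. NIA1 (AT1G77760, chr1:29235803-29239445, minus strand), which encodes the minor nitrate reductase, had 151, 142 and 146 CPM in BAP libraries, against 81.0, 40.4 and 49.7 CPM in DMSO libraries. Every BAP library exceeded every DMSO library, and the BAP libraries lay close together. The means were 146 ± 4.26 CPM in BAP and 57.0 ± 21.3 CPM in DMSO (SD, n = 3 each), with a log2 fold change of 1.36 ± 0.22 (edgeR adjusted p = 0.00144).

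NIA2 (AT1G37130, chr1:14158527-14161938, plus strand), the major nitrate reductase gene of Arabidopsis, had 335, 330 and 333 CPM in BAP libraries, against 568, 245 and 408 CPM in DMSO libraries. The BAP libraries fell inside the DMSO range, and the highest to lowest ratio was 1.02 in BAP and 2.32 in DMSO. The log2 fold change was -0.29 ± 0.25 with a 95% interval of -0.85 to 0.27 (edgeR adjusted p = 0.385). This value rests on single DMSO libraries. Without DMSO replicate 2 it was -0.57 and passed the test (edgeR adjusted p = 0.0152), and without DMSO replicate 1 it was 0.015.

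NIR1 (AT2G15620, chr2:6810476-6812939, plus strand), the only nitrite reductase gene of the plant, had 400, 339 and 292 CPM in BAP libraries, against 604, 479 and 459 CPM in DMSO libraries. The groups did not overlap, and BAP replicate 1 was nearest to the DMSO libraries. The log2 fold change was -0.58 ± 0.14 (edgeR adjusted p = 0.0115). It was -0.48 without BAP replicate 3 and -0.46 without DMSO replicate 1, in both cases under the fold minimum.

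The share of NIA1 in the nitrate reductase transcripts differed between groups. Per kb of exon, NIA1 made up 31.4%, 30.5% and 30.8% of NIA1 plus NIA2 in BAP libraries, against 12.7%, 14.4% and 11.0% in DMSO libraries. The shares did not overlap, and they varied less among DMSO libraries than the levels did. The means were 30.9% ± 0.464 in BAP and 12.7% ± 1.68 in DMSO (SD, n = 3 each), a difference of 18.2 percentage points (exact permutation test, two-sided, p = 0.1, the smallest that 3 against 3 allows). The summed level of both genes was 479 ± 6.79 CPM in BAP and 464 ± 182 CPM in DMSO, so the total overlapped between groups.

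**Figure D3:**
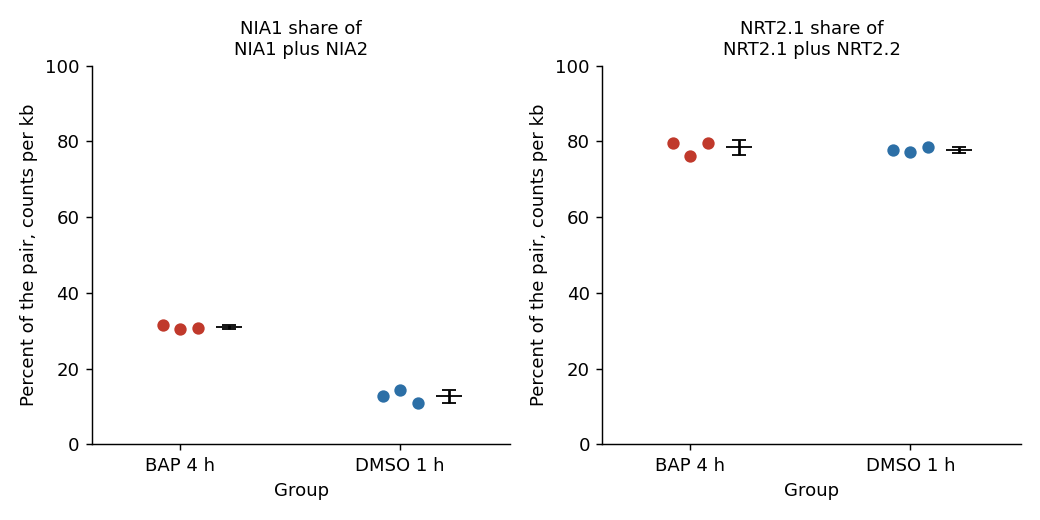
Percent of the pair's transcripts, counted per kb of exon, that came from NIA1 (left panel) and from NRT2.1 (right panel) in each BAP (red) and DMSO (blue) library, with mean and SD in black (n = 3 each). The NIA1 share averaged 30.9% in BAP and 12.7% in DMSO, and the NRT2.1 share 78.5% in BAP and 77.7% in DMSO.

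Within the DMSO group, NIA1 and NIA2 were highest in replicate 1 and lowest in replicate 2. This order of the DMSO libraries was not particular to them, and it held for 4 of the 8 loci (NRT1.1 and NRT3.1 as well). It held for 7 of 18 ammonium genes, GLN1;2 and GLT1 among them, and for 7 of 12 cofactor genes. Only 1 of 13 other nitrate transport genes and 6 of 37 nitrate signalling genes had it, against 16.1% of all tested genes. Markers of the root epidermis, where nitrate is taken up, are given beside it. EXPA7, an expansin of root hairs, had 14.7, 19.6 and 15.5 CPM in BAP libraries, against 25.8, 7.51 and 14.2 CPM in DMSO libraries. EXPA18, a related expansin, had 14.7, 18.6 and 14.7 CPM in BAP libraries, against 20.5, 5.11 and 10.5 CPM in DMSO libraries. COBL9 and RHS14 also had this order, and GL2, expressed in cells without hairs, did not. The order was not particular to hair markers. GSO1 of the endodermis had it (53.2, 34.8 and 46.9 CPM in DMSO libraries). So did the cortex marker AED3, the root tip marker SMB and the clock genes GI and LUX. CASP1 of the endodermis, the cortex marker CO2 and the clock gene CCA1 did not. The 5 epidermis and hair markers summed to 47.9 to 62.0 CPM in BAP libraries and 24.9 to 65.4 CPM in DMSO libraries, so the groups overlapped. Of these markers, 1 of 5, COBL9, was called higher (11.6% of all tested genes were), and none was at 0. Their part in the spread of NIA1 and NIA2 was not tested.

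**Figure D4:**
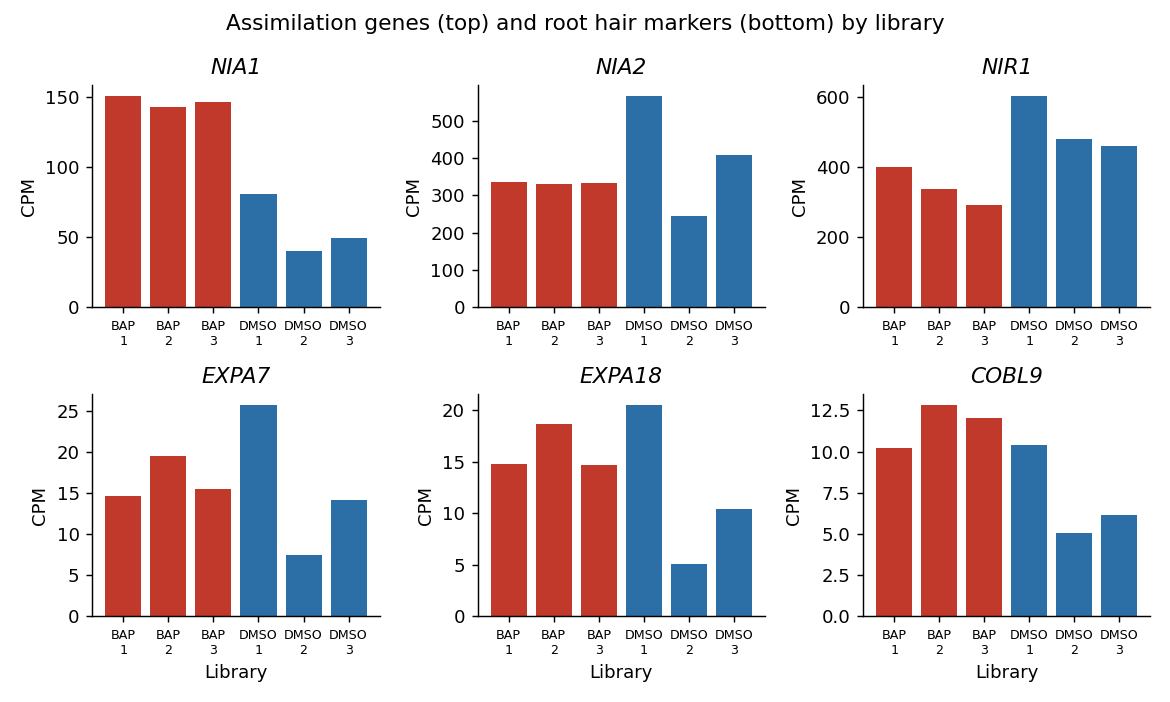
CPM of NIA1, NIA2 and NIR1 (top row) and of the root hair markers EXPA7, EXPA18 and COBL9 (bottom row) in each BAP (red) and DMSO (blue) library; each bar is 1 library and each axis starts at 0. DMSO replicate 2 has the lowest DMSO bar for NIA1, NIA2, EXPA7, EXPA18 and COBL9, but not for NIR1.

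Counted per kb of exon, the order of the transcripts also differed between groups. In BAP roots NRT1.5 stood first with 404 ± 36.9 CPM per kb, followed by NRT3.1 with 171 ± 31.9 and NIR1 with 157 ± 24.6, which were within their spread of each other. NIA2 had 104 ± 0.823 CPM per kb, and NRT1.1 with 50.9 ± 10.9 and NIA1 with 46.4 ± 1.35 were again within their spread. NRT2.1 had 18.7 ± 4.95 and NRT2.2 had 5.17 ± 1.5 CPM per kb. In DMSO roots NRT1.5 also stood first with 614 ± 109 CPM per kb, but NRT1.1 was next with 353 ± 33.2, ahead of NIR1 with 234 ± 35.8. NRT3.1 with 144 ± 12 and NIA2 with 127 ± 50.3 were within their spread, and NRT2.1 followed with 41.0 ± 1.74. NIA1 with 18.1 ± 6.74 and NRT2.2 with 11.7 ± 0.400 CPM per kb came next and were also within their spread. NRT1.1 was thus at rank 5 in BAP, not set apart from rank 6, and at rank 2 in DMSO. NIA1 was at rank 6 in BAP and rank 7 in DMSO, a shift that the spread did not resolve.

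Within the BAP group, replicate 3 was the lowest library for 6 of the 8 loci, including NRT1.1, NRT1.5, NRT2.1, NRT2.2, NRT3.1 and NIR1, and replicate 1 was the highest for 6 of 8. Summed CPM was also lowest in BAP replicate 3 for the other nitrate transport, ammonium, cofactor and signalling lists given below. The ammonium list had 8735.6, 8108.3 and 7342 CPM in BAP replicates 1 to 3. The share of all tested genes with such an order was not counted. Without BAP replicate 3 the calls of NRT1.1, NRT1.5, NRT2.1, NRT2.2 and NIA1 held, and that of NIR1 was lost, as given above. Clock genes differed between the groups as well. Of 9, 5 were called higher (11.6% of all tested genes were) and 3 were called lower (11.4% of all tested genes were). None of the 9 overlapped between groups, as 51.4% of all tested genes did not. The morning gene LHY had 5.79 to 9.77 CPM in BAP libraries, against 52.9 to 111 CPM in DMSO libraries. The part of the time of day in the nitrate genes was not tested.

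Other genes that move nitrate were called in both directions. Of 17 listed, 16 were in the files and 13 were tested, with 3 called higher (11.6% of all tested genes were), 4 called lower (11.4% of all tested genes were) and a median log2 fold change of -0.03. NRT1.8, which removes nitrate from the xylem, had 8.79, 8.62 and 11.3 CPM in BAP libraries, against 74.0, 46.1 and 43.4 CPM in DMSO libraries (log2 fold change -2.51 ± 0.22, edgeR adjusted p = 5.26e-05). NRT1.7, known for loading nitrate into the phloem of leaves, was higher, with 4.03, 6.95 and 7.23 CPM in BAP libraries and 1.53, 1.25 and 2.45 CPM in DMSO libraries (log2 fold change 1.795 ± 0.30, edgeR adjusted p = 0.00186). The genes of SLAC1-related anion channels split, with log2 fold changes of 1.74 for SLAH2, -1.95 for SLAH1 and -1.80 for SLAH3. So did the vacuolar exchanger CLCa, which stores nitrate, at 0.65 and its relative CLCb at -1.08. Without BAP replicate 2, CLCa was 0.49, under the fold minimum.

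**Figure D5:**
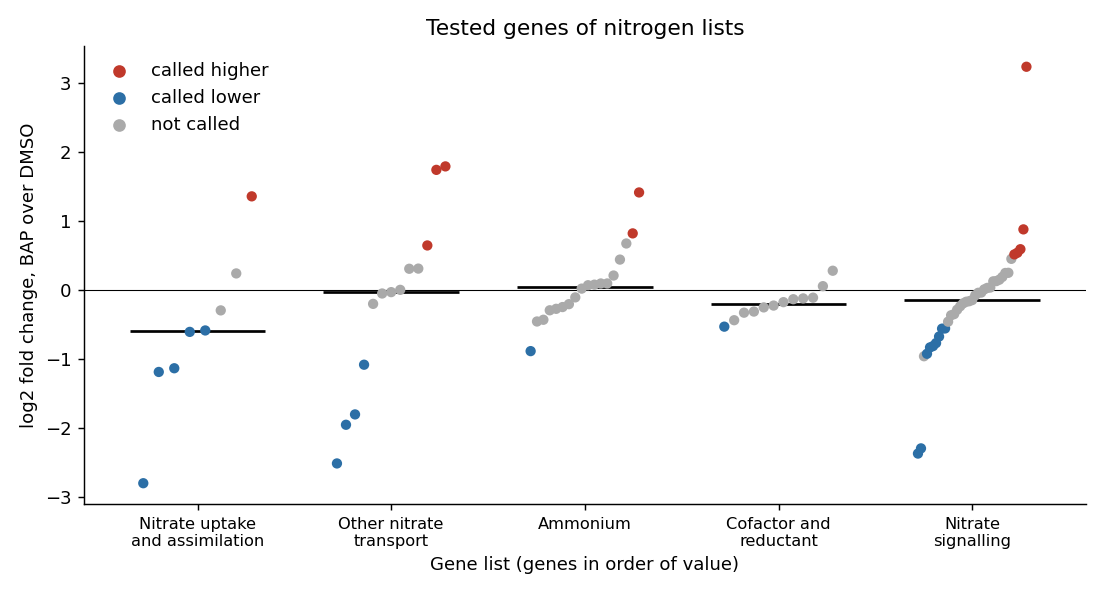
Log2 fold change of BAP over DMSO for each tested gene of the nitrate uptake and assimilation loci and of 4 other nitrogen lists, in order of value within each list, coloured by call, with a line at each list's median. The medians are -0.59, -0.03, 0.05, -0.20 and -0.14, and genes lie on both sides of 0 in each list.

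For the steps after nitrite reductase, the counts of calls were no higher than the background. Of 19 genes of ammonium transport and assimilation, 18 were tested, with 2 called higher (background 11.6%), 1 called lower (background 11.4%) and a median of 0.05. AMT1;2, an ammonium transporter of the root endodermis and cortex, had 322, 324 and 279 CPM in BAP libraries, against 651, 529 and 524 CPM in DMSO libraries (log2 fold change -0.88 ± 0.11, edgeR adjusted p = 0.000365). The glutamate dehydrogenase genes GDH3 and GDH1 were higher, with log2 fold changes of 1.42 and 0.82. GLN1;2, a cytosolic glutamine synthetase, averaged 3162 ± 463 CPM in BAP and 3396 ± 604 CPM in DMSO and had a log2 fold change of -0.10 ± 0.16 (edgeR adjusted p = 0.657). GLT1, the NADH-dependent glutamate synthase, had -0.43 ± 0.11 (edgeR adjusted p = 0.0179), which was under the fold minimum. The number called lower was 2 without BAP replicate 1 or DMSO replicate 3 and 3 without DMSO replicate 2.

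Genes that supply the reductases with cofactors and electrons had small values. Of 12 tested, 0 were called higher and 1 was called lower by edgeR (background 11.6% and 11.4%). DESeq2 also gave 0 and 1. At an unadjusted p under 0.05 in edgeR, 1 was higher and 6 were lower. The share of all tested genes at that threshold was not counted, so these 2 counts have no background here. The gene called lower, UPM1, encodes a methyltransferase of siroheme synthesis, the cofactor of nitrite reductase. Its log2 fold change was -0.53, and it was -0.49 without BAP replicate 3 and -0.49 without DMSO replicate 1, fits in which 0 genes were called lower; without BAP replicate 1 or DMSO replicate 2, 2 were. The root ferredoxin reductase gene RFNR2 had -0.43 and the ferredoxin gene FD3 had 0.06.

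Of 38 genes of nitrate signalling, 37 were tested, with 5 called higher (background 11.6%), 9 called lower (background 11.4%) and a median of -0.14. AT1G06830, a glutaredoxin family gene, had 7.40, 5.64 and 5.44 CPM in BAP libraries, against 0.346, 0.723 and 0.863 CPM in DMSO libraries (log2 fold change 3.24 ± 0.27, edgeR adjusted p = 4.51e-05). BT2, which encodes a BTB and TAZ domain protein, had a log2 fold change of 0.88, the cytokinin response factor gene CRF4 one of 0.60, and the kinase gene CPK30 one of 0.54. Of the NIN-like protein genes, whose family holds the main regulators of nitrate responses, NLP3 had -2.37 and NLP2 had -0.92. The gene of the bZIP factor TGA1 had -0.81 and that of AT3G25790, of a myb-like factor family, -0.83. The most abundant gene of the list beside TGA1 was LBD38, at -0.03. CPK30 fell under the fold minimum without BAP replicate 2 (0.496) and without DMSO replicate 3 (0.455), fits with 3 genes called higher, and AT3G25790 missed the p threshold without BAP replicate 3 (-0.64) and without DMSO replicate 1 (-0.63).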

How the data were processed

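Reads had been trimmed, aligned by Bowtie2 and assigned to genes by HTSeq. The submitters' processing notes name TAIR10 as the build, and versions, use of strand and treatment of reads with several matches are not given in the sources used here. The files the authors deposited hold raw counts per gene for 6 libraries, without normalization. Gene positions are those of the files, counted from 1, while exon lengths, symbols and upstream windows came from RefSeq TAIR10.1. All 27998 shared nuclear identifiers lay on the same chromosome in both, and 14051 had the same start or the same end. Starts and ends in the files differed from RefSeq by medians of 37 and -36 bases. Values per kb and windows therefore rest on RefSeq gene models, which can differ from those counted. Groups came from the labels.

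Counts were tested in edgeR 4.0.16 under R 4.3.3, by its quasi-likelihood F statistic (filterByExpr with minimum count 10 and minimum total 15, TMM, treatment only, Benjamini-Hochberg over 20987 genes, 12615 left out). The standard error is the log2 fold change divided by the square root of F. Shares of gene pairs were compared by exact permutation tests. Alternatives were DESeq2 1.42.0, other normalizations and filters, the replicate number as a block, no fold minimum, and each library left out. The members and lists were chosen with earlier results of these data known. Named genes of the other lists are the 2 most abundant and up to 4 called genes per direction with the largest change. The called genes needed a mean of at least 1 CPM in 1 group and no overlap. Clock genes and cell type markers named beyond this rule were chosen after their values were seen.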

Additional observations from a re-analysis of the deposited data

How the results depend on the processing

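Of the 8 tested loci, NRT1.1 (-2.92 to -2.63), NRT2.1 (-1.32 to -0.94), NRT2.2 (-1.31 to -0.96) and NIA1 (1.15 to 1.69) kept direction and call under all 12 alternatives, and NRT3.1 (0.14 to 0.39) was not called under any. NRT1.5, NIR1 and NIA2 depended on single libraries, as given beside their values; NIA2 ranged from -0.57 to 0.015 with single libraries left out. Without a fold minimum, 3887 genes were called higher and 4061 lower, with 4 ammonium genes lower and, among cofactor genes, 1 higher and 5 lower. With single libraries left out, 1 to 3 ammonium genes and 0 to 2 cofactor genes were called lower. Of the signalling genes, 3 to 6 were called higher and 6 to 10 lower. The nitrate loci called lower were 4 without BAP replicate 3 or DMSO replicate 1 and 5 in the other such fits. In these fits the sign changed for GLN1;2 (-0.25 to 0.011), FD3 (-0.024 to 0.13) and LBD38 (-0.20 to 0.14). The cause was not tested. The deviations of libraries with the same number correlated at 0.212, 0.0508 and 0.291, against -0.285 to 0.0664 for libraries with different numbers. The labels do not say whether a number marks a shared culture. Pairing was therefore not settled, and the main fit did not use it. With the replicate block, 2474 genes were called higher and 2455 lower, and 1 and 5 of the nitrate loci. Depth limits NRT2.4 and NRT2.5, with 9 and 1 reads over the BAP libraries and 11 and 4 over the DMSO libraries. Without the filter their log2 fold changes were -0.22 ± 1.02 and -1.61 ± 1.43.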

Other observations

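The genes whose levels over the 6 libraries were most like those of NRT2.1 and NIA1 were listed as a description, among 19804 tested genes averaging 1 CPM or more. SIS3, a ubiquitin ligase gene known from sugar responses, followed NRT2.1 with Pearson's r of 0.9998 over log2 CPM. It had 36.5, 35.6 and 33.7 CPM in BAP libraries, against 39.7, 39.9 and 40.2 CPM in DMSO libraries, so its differences were far smaller than those of NRT2.1. AT4G20730 and RHA1 were next, both at 0.997. For NIA1 the first was AT2G37580 at 0.998, with 8.43, 7.89 and 8.63 CPM in BAP libraries, against 3.96, 1.73 and 2.01 CPM in DMSO libraries. AT1G19900 at 0.997 and BT4, a relative of BT2, at 0.996 followed. In all, 358 genes reached 0.95 with NRT2.1 and 599 with NIA1, in 6 libraries that fall into 2 groups, so a high r is common here.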
